A study of Homo sapiens with 6 samples.

Results

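The ATP-binding cassette (ABC) transporter family was examined in MCF10A cells and in MCF10A-SNAI1 cells. Members were the genes with a symbol made of ABCA to ABCG and a number, together with CFTR, TAP1 and TAP2, each read from the brightest of its probe sets that carry exactly 1 gene symbol. This gave 46 members among the 18417 genes measured in the series. Among them ABCC13 is listed by RefSeq as a transcribed pseudogene. Each line was measured on 3 Affymetrix HuGene arrays of total RNA. MCF10A, untransfected here, is a spontaneously immortalized mammary epithelial line of human origin that forms no tumors. The MCF10A-SNAI1 line was derived from MCF10A by transfection with a SNAI1-Flag plasmid driven by a CMV enhancer and a chicken beta-actin promoter, made by another laboratory, which kept the puromycin-resistant cells. The MCF10A cells measured here were ATCC cells received as a gift, and the study does not say whether this stock was the parent. Effects of SNAI1 therefore cannot be told apart from those of parental stock, plasmid, selection and time spent as a separate line. Both lines were grown in the same mammary epithelial medium (MEGM) with cholera toxin, no sample label names a drug treatment, and a line with the empty vector is not analysed here.

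ABC proteins bind and hydrolyse ATP on a conserved nucleotide-binding domain, and most of them use it to move a substrate across a membrane. Subfamily A mainly moves lipids. Subfamilies B, C and G hold the drug and conjugate pumps of chemoresistant tumors, as well as carriers of peptides, bile salts and sterols. Subfamily D serves peroxisomes and lysosomes, and subfamilies E and F have no membrane part and act at the ribosome. Of these, ABCB1, ABCC1 and ABCG2 are the pumps best known from drug-resistant cells.

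A gene was called where limma gave it an adjusted p below 0.01 and a change of more than 2-fold, limits taken from the study's methods. The adjustment was Benjamini-Hochberg over all probe sets of the array. By this rule 4 of the 46 members were called, a share no smaller than that of all genes. The difference in share was not tested. ABCA8 and ABCA6 were called higher in MCF10A-SNAI1 cells, and ABCA12 and TAP1 were called lower. These 4 of 46 members, or 8.70%, stand beside 5.64% of all genes called in either direction, 3.10% higher and 2.54% lower. With the same p limit and a change under 2-fold, another 4 members were higher (ABCA2, ABCA5, ABCA9 and ABCC3) and 5 were lower (ABCC2, TAP2, ABCE1, ABCB8 and ABCC4). In total 13 of 46 members passed at any fold, against 23.2% of all genes. Of the 13, ABCA9, ABCB8, ABCC3, ABCC4 and ABCE1 did not pass without MCF10A replicate 2 or 3 or without MCF10A-SNAI1 replicate 2 or 3, which left 8 members each time. The median log2 fold change, MCF10A-SNAI1 minus MCF10A, was -0.022 over the members and -0.013 over all genes. Of the 42 members that were not called, 39 had a 95% interval of the log2 fold change within 1 on either side of 0, and 32 within 0.5. Fewer cells that use a gene and less RNA of it per cell cannot be told apart in these arrays.

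**Figure D1:**
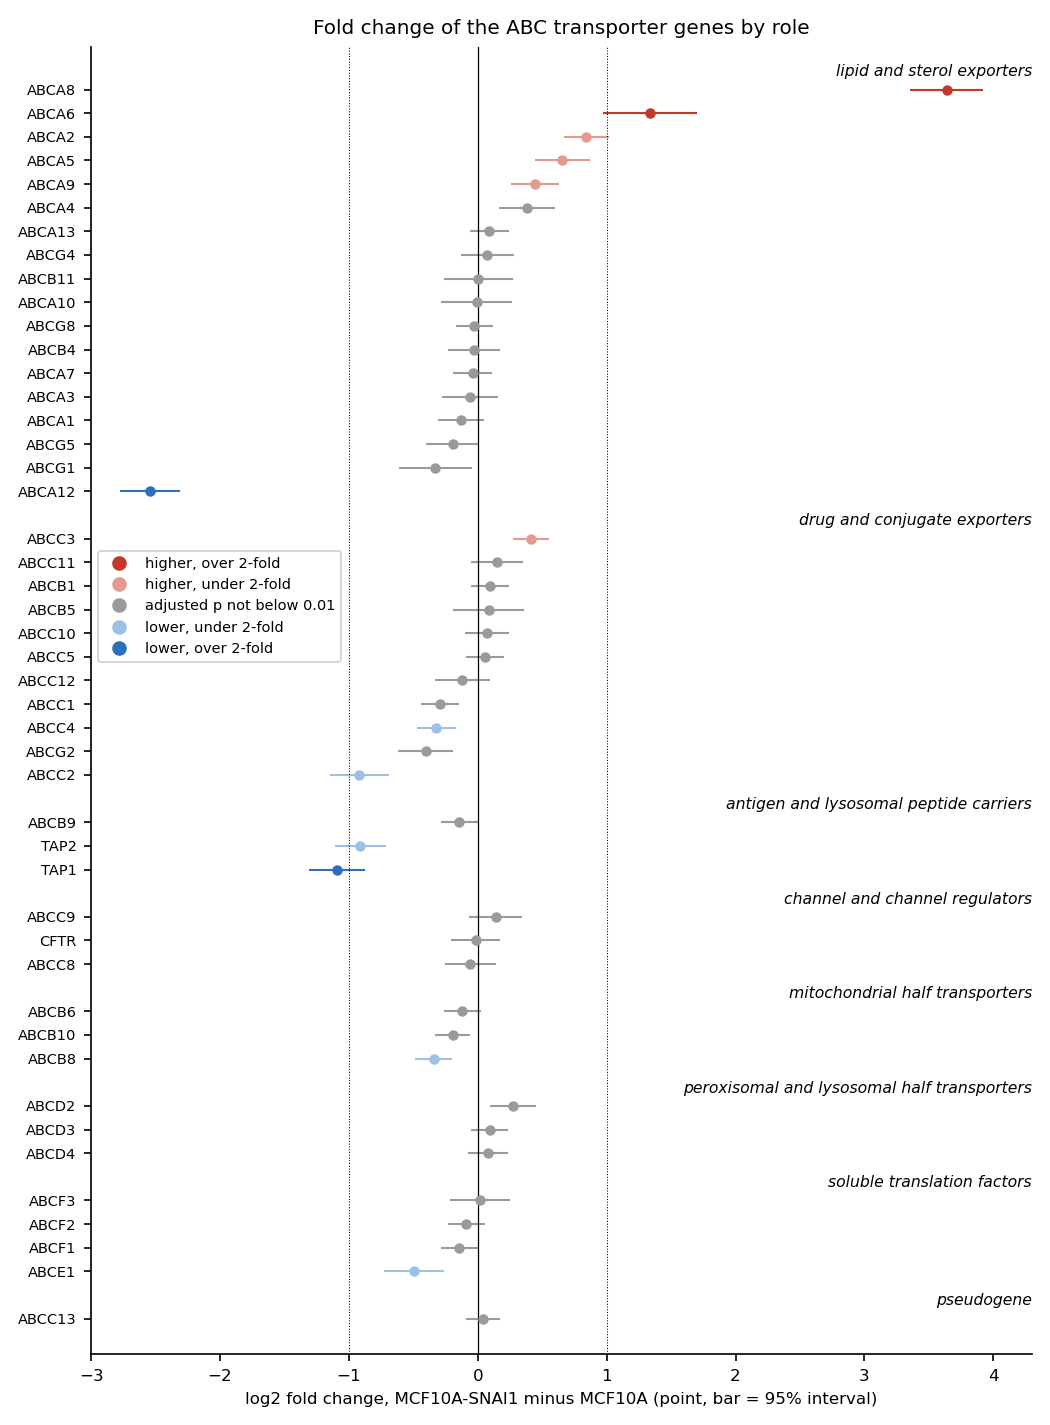
Log2 fold change, MCF10A-SNAI1 minus MCF10A, of the 46 ABC transporter genes grouped by role, with bars for the 95% interval from limma and dotted lines at 2-fold in either direction. ABCA8 at 3.64 and ABCA12 at -2.54 lie farthest from 0, and most drug exporters, channels and translation factors lie close to it.

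The arrays themselves were even, with medians between 6.04 and 6.09 on the log2 scale. Pearson's r across probe sets was 0.995 to 0.996 within a line and 0.977 to 0.978 between lines. SNAI1 was higher by 4.75 on the log2 scale in the line that carries it, and CDH1, the E-cadherin gene, had a log2 fold change of -3.97. VIM, the mesenchymal filament vimentin, was bright in both lines and did not pass, at 0.058 (limma adjusted p = 0.601). Of 9 measured mammary epithelial markers 6 were called lower (KRT5, KRT14, KRT15, EPCAM, CDH1 and ITGB4), and MCF10A was bright for most of the list. KRT8, a keratin of simple epithelia, was higher but under 2-fold at 0.95, its partner KRT18 was lower but under 2-fold at -0.65, and both stayed bright in MCF10A-SNAI1 cells at 12.07 and 11.15. Of 8 leukocyte markers, CD14 was called higher at 1.03, CD68 was higher but under 2-fold at 0.99, and the defining marker PTPRC was at 3.23 in MCF10A and 3.22 in MCF10A-SNAI1. Summed on the linear scale, the leukocyte list ran from 529 to 542 in MCF10A arrays and from 848 to 911 in MCF10A-SNAI1 arrays. This sum is weighted toward CD68, the brightest of the list at 8.15 in MCF10A and 9.13 in MCF10A-SNAI1. The other 6 markers beside CD68 and CD14 did not pass. The epithelial list summed to 27893 to 29429 in MCF10A arrays and 10127 to 10167 in MCF10A-SNAI1 arrays. None of 5 endothelial markers was called.

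The strongest change of the family was in ABCA8, a transporter linked to cholesterol and other lipids that is known from fibroblasts, liver and brain (probe set 8017885). The 3 MCF10A arrays read 3.54, 3.59 and 3.73 on the log2 scale, and the 3 MCF10A-SNAI1 arrays read 7.001, 7.36 and 7.41. The lines did not overlap, and the gap was many times the spread within either line. ABCA8 rose 12.5-fold (log2 fold change 3.64, standard error (SE) 0.12, limma adjusted p = 2.45e-06). Its level in MCF10A lay in the lowest 20% of all probe sets, at the 15.3rd percentile of them, and reached the 65.9th percentile in MCF10A-SNAI1. If the lower level is background, the fold is a minimum. The table holds no detection calls with which to decide this.

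ABCA6, whose product is thought to handle lipids in macrophages, rose as well (probe set 8017964). Its MCF10A arrays read 3.69, 4.16 and 4.19, and its MCF10A-SNAI1 arrays 5.22, 5.55 and 5.29. MCF10A replicate 1 was the low one, and the lines did not overlap. The fold change was 2.53 (log2 fold change 1.34, SE 0.15, limma adjusted p = 7.83e-04). ABCA6 lay at the 21.0th percentile of all probe sets in MCF10A and at the 39.9th in MCF10A-SNAI1. If its level in MCF10A is background, this fold too is a minimum. The methods' unpaired t-test on the same values gave an adjusted p of 0.0168 (exact two-sided permutation p = 0.1, the smallest that 3 arrays against 3 allow), which left ABCA6 uncalled.

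ABCA8 and ABCA6 lie in a row of related genes on chromosome 17, in the RefSeq order ABCA8, ABCA9, ABCA6, ABCA10, ABCA5. ABCA9 went from 3.54, 3.58 and 3.47 in MCF10A to 3.88, 4.10 and 3.95 in MCF10A-SNAI1. It was higher but under 2-fold (log2 fold change 0.44, limma adjusted p = 0.00547) and stayed near the lower end of the table, at the 20.5th percentile. ABCA5, which acts in lysosomes and late endosomes, went from 6.25, 6.46 and 6.56 to 7.04, 7.06 and 7.13 (log2 fold change 0.65, limma adjusted p = 0.00177). Between them ABCA10 read 4.25, 4.23 and 4.18 in MCF10A and 3.96, 4.25 and 4.41 in MCF10A-SNAI1, overlapping lines with a log2 fold change of -0.0086 and a 95% interval from -0.28 to 0.26. Thus 4 of the 5 genes of the row were higher at an adjusted p below 0.01, and ABCA10 was not. Over all genes the share was 12.1%. The row was described because ABCA8 and ABCA6 were called, and both are in this count, so the comparison is no test of the row. By the methods' t-test ABCA8 alone of the row passed at that threshold, and ABCA9 also missed it with median centring, with the replicate block and when any array but MCF10A-SNAI1 replicate 1 was left out. The 5 genes are related in sequence. How far their probe sets read RNA of each other was not tested.

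The genes on either side were looked at after these values were seen. MAP2K6, the kinase that activates p38 and the next protein-coding gene after ABCA5, rose from 5.55 ± 0.086 to 7.74 ± 0.16 (SD of 3 arrays, log2 fold change 2.19, limma adjusted p = 9.88e-06). Beyond it, the potassium channel genes KCNJ16 and KCNJ2 and the transcription factor gene SOX9 had log2 fold changes of 0.12, 0.14 and -0.29 and were not called. On the side of ABCA8, FAM20A was at -0.14 and PRKAR1A at 0.11, neither of them called, and WIPI1, an autophagy gene, was higher but under 2-fold at 0.72.

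ABCA12 moved the other way. It loads lipids into the lamellar granules of keratinocytes, and its loss in humans causes harlequin ichthyosis, so that it is a gene of stratified epithelium (probe set 8058708). The MCF10A arrays read 6.78, 7.08 and 6.96, and the MCF10A-SNAI1 arrays 4.28, 4.42 and 4.497. The lines were far apart and each was tight. ABCA12 fell 5.82-fold (log2 fold change -2.54, SE 0.099, limma adjusted p = 5.10e-06), from the 62.0th to the 26.7th percentile of all probe sets.

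The E-box CAGGTG is the site that Snail proteins bind, and it was searched on both strands. RefSeq promoter windows were at hand for ABCA12 (2 windows), ABCA6 (1) and TAP1 (2) of the called members. Only 1 of the 2 ABCA12 windows held the motif, that of its outermost start. The 250 bases before that ABCA12 start are shown for that reason, beside those of ABCA6 and TAP1, which held none (GRCh38.p14, all on the minus strand of the genome, written 5′ to 3′ along the gene). Capitals mark the match, at position -22 to -17 from the ABCA12 start.
ABCA12, chr2:215138627-215138876: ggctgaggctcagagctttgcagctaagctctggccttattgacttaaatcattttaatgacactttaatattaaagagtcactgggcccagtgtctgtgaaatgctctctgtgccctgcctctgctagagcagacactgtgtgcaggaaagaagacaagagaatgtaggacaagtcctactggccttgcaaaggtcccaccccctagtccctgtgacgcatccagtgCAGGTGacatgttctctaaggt
ABCA6, chr17:69141896-69142145: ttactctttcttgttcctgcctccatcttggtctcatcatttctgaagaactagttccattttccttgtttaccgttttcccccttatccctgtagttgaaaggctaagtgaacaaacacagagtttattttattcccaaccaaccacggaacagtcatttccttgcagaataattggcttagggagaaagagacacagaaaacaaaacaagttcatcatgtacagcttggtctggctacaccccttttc
TAP1, chr6:32853705-32853954: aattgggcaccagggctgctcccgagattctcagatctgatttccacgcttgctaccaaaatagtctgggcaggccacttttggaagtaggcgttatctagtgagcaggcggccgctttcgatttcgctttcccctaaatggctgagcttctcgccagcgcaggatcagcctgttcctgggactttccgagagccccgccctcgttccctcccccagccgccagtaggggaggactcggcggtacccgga

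A match of CAGGTG was no feature of the family. Windows of 300 bases (250 before to 50 after a start) were found for 37 members, 55 windows in all, and 12 of these, 21.8%, held the motif, as did 20.6% of all 35116 windows. They belonged to 10 genes. ABCA12 was called lower, ABCB8 was lower but under 2-fold, ABCA2 and ABCA5 were higher but under 2-fold, and ABCA1, ABCA3, ABCB9, ABCC11, ABCC12 and ABCG8 did not pass at any fold. A match is a description of the letters and not a measured binding site.

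Of the 18 lipid, sterol and bile salt exporters measured, 2 rose, 1 fell, 3 were higher but under 2-fold and 12 did not pass. Thus 16.7% were called, against 5.64% of all genes, and 6 passed at any fold, against 23.2%. The difference in share was not tested. ABCA2, a transporter of the endosomal and lysosomal membrane that affects cholesterol and myelin lipids, went from 7.53, 7.40 and 7.62 in MCF10A to 8.38, 8.34 and 8.37 in MCF10A-SNAI1 (log2 fold change 0.84, SE 0.073, limma adjusted p = 2.08e-04). All 3 MCF10A-SNAI1 arrays lay above all MCF10A arrays, by more than the spread of either line. The upper end of its 95% interval, 1.02, lay above the fold threshold. The cholesterol efflux members ABCA1, ABCG1, ABCG5 and ABCG8 did not pass. ABCA1, the pump that loads cholesterol onto apolipoprotein A-I, had a log2 fold change of -0.13 (95% interval -0.31 to 0.049). Its partner ABCG1 was at -0.33, with a 95% interval from -0.61 to -0.046 that lay below 0 (adjusted p = 0.0999 from limma). MCF10A-SNAI1 replicate 1 of ABCG1 read 5.54, near the MCF10A arrays at 5.56, 5.59 and 5.64, while replicates 2 and 3 read 5.12 and 5.14. ABCG5 and ABCG8, which act as a pair in sterol excretion, were at -0.20 and -0.027. The retinal transporter ABCA4 read 4.54, 4.39 and 4.52 in MCF10A and 4.99, 4.89 and 4.70 in MCF10A-SNAI1, with an adjusted p of 0.0226 in limma. The bile canalicular pumps ABCB11 and ABCB4 and the lung surfactant transporter ABCA3 lay between -0.060 and 0.0047. ABCA7, ABCA13 and ABCG4 had log2 fold changes of -0.039, 0.090 and 0.075 and did not pass.

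Of 20 other measured genes of cholesterol efflux and its regulation by liver X receptors, 1 fell and none rose, beside 4 that were higher and 3 that were lower under 2-fold. Thus 1 was called, against 5.64% of all genes, and 8 passed at any fold, against 23.2%. The gene that fell was SCARB1, the receptor that exchanges cholesterol with high density lipoprotein, at -1.04 (adjusted p = 2.79e-05 from limma).

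No drug or conjugate exporter was called in either direction, against 5.64% of all genes. Of 11 measured, ABCC3 was higher and ABCC2 and ABCC4 were lower under 2-fold, and 8 did not pass. Thus 3 passed at any fold, against 23.2% of all genes. A group of 11 is too small to read the absence of a call as its feature. An unadjusted p below 0.05 was found for 5 of the 11, beside 42.3% of all genes. ABCB1, the P-glycoprotein that exports doxorubicin, read 4.11, 4.06 and 4.03 in MCF10A and 4.18, 4.10 and 4.197 in MCF10A-SNAI1. The lines overlapped, with a log2 fold change of 0.095 and a 95% interval from -0.050 to 0.24. It lay at the 21.8th and 23.2nd percentile of all probe sets. ABCG2, the breast cancer resistance protein that exports camptothecin derivatives and marks side populations of stem cells, read 4.52, 4.25 and 4.23 in MCF10A and 3.97, 3.88 and 3.93 in MCF10A-SNAI1. The lines did not overlap, but the difference did not pass (log2 fold change -0.40, 95% interval -0.62 to -0.19, adjusted p = 0.0168 from limma), and in MCF10A-SNAI1 it lay at the 19.8th percentile. ABCC1, the multidrug resistance protein that exports glutathione conjugates and anthracyclines, was the brightest of the trio at 8.46, 8.39 and 8.38 in MCF10A and 8.17, 8.05 and 8.12 in MCF10A-SNAI1. It did not pass either (log2 fold change -0.29, 95% interval -0.44 to -0.15, adjusted p = 0.0137 from limma), but it did pass the p threshold with an intensity trend in limma and with dim probe sets left out. None of these 3 intervals reached a rise of 2-fold, and those of ABCC1 and ABCG2 lay below 0. ABCB1 and ABCG2 were low in both lines, ABCG2 at the 25.7th percentile in MCF10A. Only ABCG2 in MCF10A-SNAI1 lay within the lowest 20% of probe sets. If these levels are background, their intervals do not limit a change in the RNA itself.

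The largest change among the exporters was in ABCC2, the canalicular pump of bilirubin and drug conjugates. MCF10A read 5.92, 6.19 and 6.22, and MCF10A-SNAI1 read 5.25, 5.198 and 5.13. It was lower but under 2-fold (log2 fold change -0.92, SE 0.095, limma adjusted p = 4.78e-04). Without MCF10A replicate 1, its low array, the log2 fold change was -1.01 and ABCC2 was called. ABCC3, a basolateral exporter of conjugates, was bright and moved up from 8.86, 8.82 and 8.84 to 9.21, 9.24 and 9.31 (log2 fold change 0.41, limma adjusted p = 0.00212). ABCC4, which exports cyclic nucleotides and prostaglandins, moved down from 7.55, 7.71 and 7.65 to 7.33, 7.29 and 7.32 (log2 fold change -0.32, limma adjusted p = 0.00958). ABCC5, ABCC10, ABCC11, ABCC12 and ABCB5 had log2 fold changes between -0.12 and 0.15, and in each of them the lines overlapped.

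**Figure D2:**
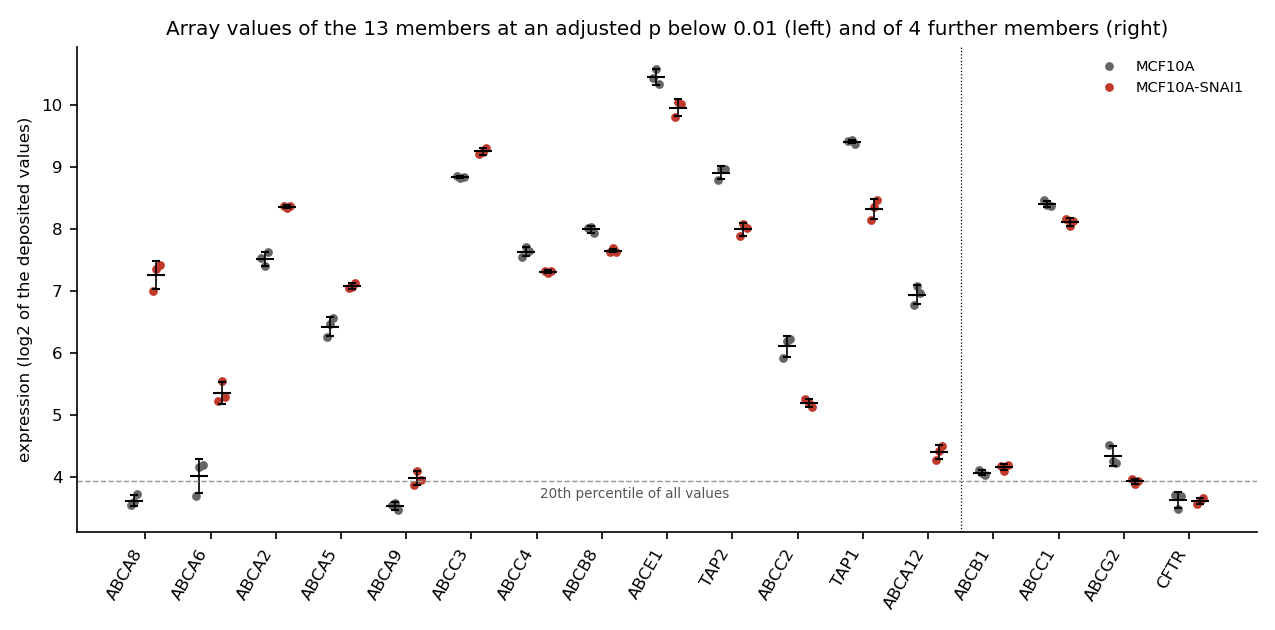
Log2 values as deposited, 1 point for each array (MCF10A grey, MCF10A-SNAI1 red) and black bars for the mean with its SD over 3 arrays, of the 13 members at an adjusted p below 0.01 and for ABCB1, ABCC1, ABCG2 and CFTR. ABCA8 lies below the 20th percentile of all values in MCF10A and near 7.26 in MCF10A-SNAI1, and ABCB1 and CFTR lie low in both lines.

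Genes that feed or complement these pumps changed in both directions. Of 38 measured genes of xenobiotic sensing and conjugation, 2 rose, 1 fell, 3 were higher and 5 lower under 2-fold, and 27 did not pass. The called share was 7.89%, against 5.64% of all genes, and 11 passed at any fold, against 23.2%. CYP1B1, an oxidizing enzyme of estrogens and aromatic hydrocarbons, rose at 3.02, and SULT1E1, the estrogen sulfotransferase, at 1.14. SULT1E1 lost its call with the replicate block, in the methods' t-test (adjusted p = 0.0471, exact two-sided permutation p = 0.1) and when any array but MCF10A-SNAI1 replicate 1 was left out. UGT8, which makes galactosylceramide, fell at -2.26. Of 33 organic ion, nucleoside and peptide carriers of the SLC families, which bring drugs into cells or out of them, 3 rose, 3 fell and 27 were not called. Here 18.2% were called, against 5.64% of all genes, and 8 passed at any fold, against 23.2%. The difference in share was not tested. The uptake carriers SLCO1B3 and SLCO1B1, known from liver, rose at 3.23 and 1.26, each from the lowest 20% of probe sets in MCF10A, and their probe sets belong to closely related genes. SLC22A4, an ergothioneine carrier, rose at 1.103. The methods' t-test did not call it, and neither did limma without MCF10A-SNAI1 replicate 2, where it was at 0.996. SLCO4A1, the nucleoside carrier SLC29A1 and the proton-coupled exporter SLC47A1 fell at -2.06, -1.41 and -1.08.

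TAP1 and TAP2 encode the subunits of the transporter that carries peptides from the cytosol into the endoplasmic reticulum for loading onto MHC class I molecules. TAP1, whose promoter is printed above with that of ABCA12, read 9.42, 9.43 and 9.38 in MCF10A and 8.14, 8.35 and 8.47 in MCF10A-SNAI1 (probe set 8125512). The MCF10A arrays were nearly identical, the MCF10A-SNAI1 arrays were more spread, and the lines did not overlap. TAP1 fell 2.13-fold (log2 fold change -1.09, SE 0.091, limma adjusted p = 1.74e-04). TAP2 read 8.79, 8.97 and 8.96 in MCF10A and 7.88, 8.08 and 8.02 in MCF10A-SNAI1. It was lower but under 2-fold (log2 fold change -0.91, SE 0.083, limma adjusted p = 2.63e-04), with a 95% interval from -1.11 to -0.72. The 3 probe sets of TAP1 hold identical values and are not independent. Those of TAP2 gave log2 fold changes of -0.91, -0.93 and -0.90. ABCB9, the related peptide carrier of lysosomes, read 6.46, 6.33 and 6.39 in MCF10A and 6.29, 6.23 and 6.24 in MCF10A-SNAI1 and did not pass (log2 fold change -0.14, limma adjusted p = 0.169).

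Of 14 other measured genes of peptide loading, none was called by limma, 1 was higher and 2 were lower under 2-fold, and 6 had an unadjusted p below 0.05. These counts lie near those of all genes, of which 5.64% were called, 23.2% passed at any fold and 42.3% had an unadjusted p below 0.05. The 2 lower ones, named after their values were seen, were PSMB8 and PSMB9, the immunoproteasome subunits whose genes alternate with TAP2 and TAP1 on chromosome 6. PSMB8 was at -0.58 (limma adjusted p = 0.00737) and PSMB9 at -0.50 (limma adjusted p = 0.00397) in log2 fold change. Next to them HLA-DOB and HLA-DMB were not called, at -0.15 and -0.094, and HLA-DMA was higher but under 2-fold at 0.43. B2M, the common light chain of class I molecules, was at 10.40 in MCF10A and 10.47 in MCF10A-SNAI1, and the loading factor TAPBP had a log2 fold change of 0.048. The regulators of these genes NLRC5 and IRF1 were at 0.071 and -0.30, neither of them passing. Of the 14 genes, the higher one was TAPBPL, at 0.48 (limma adjusted p = 0.00596). The largest change was in ERAP2, at -0.61, which did not pass (limma adjusted p = 0.0147).

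None of the 3 channel members passed at any fold, against 23.2% of all genes. CFTR, the chloride channel of secretory epithelia, read 3.71, 3.48 and 3.70 in MCF10A and 3.57, 3.62 and 3.65 in MCF10A-SNAI1 (log2 fold change -0.016, 95% interval -0.20 to 0.17). ABCC8 and ABCC9, the sulfonylurea receptors of ATP-sensitive potassium channels, were at -0.058 and 0.14. Of 13 measured partners of these channels, 1 fell, 2 were higher and 3 lower under 2-fold. The called share was 7.69%, against 5.64% of all genes, and 6 passed at any fold, against 23.2%. The gene that fell was CLCA2, a calcium-activated chloride channel regulator of basal epithelium, at -5.22.

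The mitochondrial transporters were even or slightly lower. ABCB8, which takes part in potassium and iron handling, read 8.02, 8.03 and 7.93 in MCF10A and 7.64, 7.69 and 7.63 in MCF10A-SNAI1 (log2 fold change -0.34, limma adjusted p = 0.0058). Its dimmer probe sets had log2 fold changes of -0.038 and -0.18 and did not pass. ABCB10 and ABCB6, linked to haem synthesis and porphyrin transport, were at -0.20 (adjusted p = 0.0523) and -0.12 (adjusted p = 0.235 from limma), although in each the lines did not overlap. Non-overlap alone was common, at 23.7% of all genes upward and 24.6% downward, against 9 and 14 of the 46 members. None of 19 measured genes of haem and iron-sulfur synthesis was called, against 5.64% of all genes. With 4 higher and 2 lower under 2-fold, 6 passed at any fold, against 23.2%. An unadjusted p below 0.05 was found for 12, against 42.3%.

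Of the 3 peroxisomal and lysosomal members, none passed at any fold, against 23.2% of all genes. ABCD3, the abundant peroxisomal carrier of branched and long acyl-CoAs, was at 9.93 ± 0.048 in MCF10A and 10.02 ± 0.038 in MCF10A-SNAI1 (SD of 3 arrays), and its 95% interval ran from -0.049 to 0.24. ABCD2, a carrier of very long chain fatty acids, was at 0.28 (adjusted p = 0.0378 from limma) and the lysosomal cobalamin exporter ABCD4 at 0.077. Of 25 peroxisomal import and beta-oxidation genes, 1 rose and 1 fell, beside 5 higher and 3 lower under 2-fold. The called share was 8%, against 5.64% of all genes, and 10 passed at any fold, against 23.2%. ACSL1, which activates long fatty acids, rose at 1.93, and SLC27A2, the very long chain acyl-CoA synthetase, fell at -1.31.

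The soluble members were bright in both lines. ABCE1, which splits ribosomes after termination, read 10.43, 10.58 and 10.33 in MCF10A and 9.80, 10.05 and 10.01 in MCF10A-SNAI1. It was lower but under 2-fold (log2 fold change -0.49, SE 0.097, limma adjusted p = 0.00926), and it did not pass with any array left out. ABCF1, ABCF2 and ABCF3, which act in initiation and in the GCN2 stress response, were at -0.14, -0.089 and 0.015. Of 16 partners in ribosome recycling and GCN2 signaling, 1 rose and 4 were lower under 2-fold. The called share was 6.25%, against 5.64% of all genes, and 5 passed at any fold, against 23.2%. The gene that rose was GSPT2, a paralog of the release factor GSPT1, at 2.35.

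The members spread over the whole range of the arrays. In both lines 6 members (ABCC3, ABCD3, ABCE1, ABCF1, ABCF2 and ABCF3) lay above the 80th percentile of all probe sets, and 5 (ABCB4, ABCB5, ABCC9, ABCC13 and CFTR) lay in the lowest 20%. ABCA8, ABCA9 and ABCG2 were in the lowest 20% in only 1 line. The pseudogene ABCC13 had a log2 fold change of 0.04. The table cannot show whether members this low are expressed. The median member lay at the 44.7th percentile in MCF10A and the 43.7th in MCF10A-SNAI1 of all probe sets, against 59.3 and 59.2 for the median of all genes. The SD over 3 arrays was at most 0.28 in MCF10A, for ABCA6, and at most 0.24 in MCF10A-SNAI1, for ABCG1.

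**Figure D3:**
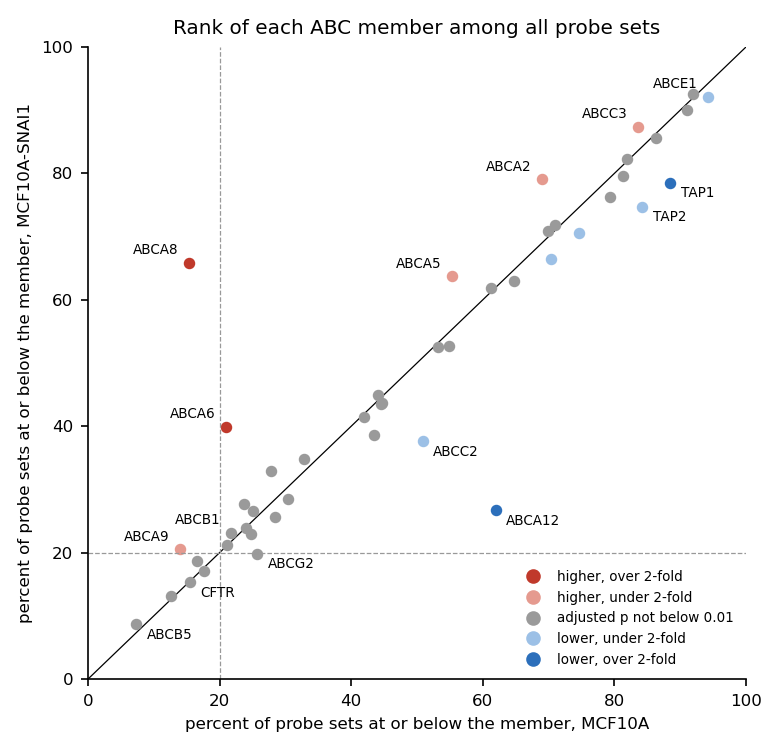
Percent of all 33297 probe sets at or below each ABC member in MCF10A (x axis) and MCF10A-SNAI1 (y axis), with dashed lines at 20% and the diagonal where both lines are equal. ABCA8 moves from 15.3 to 65.9, ABCA12 from 62.0 to 26.7, and most other members stay near the diagonal.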

How the data were processed

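The authors hybridized total RNA of 3 MCF10A and 3 MCF10A-SNAI1 samples to Affymetrix HuGene-1_0-st-v1 arrays and deposited 1 table of log2 values for 33297 probe sets. GC RMA in GeneSpring is the normalization of the methods, whereas GCOS, Expression Console 1.1 and MAS5 are listed in the submitters' processing notes. Among these, the one behind the deposited table is not given in the sources, and background correction could not be varied. Of the probe sets, 19460 had 1 gene symbol, 1754 several and 12083 none. Groups and replicate numbers came from the sample titles, and no sample was left out. The study describes the 3 transcriptomes of each line as independent repeats, while the labels name no separate cultures. The p-values cover the spread among these arrays, and their number limits the precision.

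The deposited values were fitted without further scaling in R 4.3.3 with limma 3.58.1 (coefficient MCF10A-SNAI1 minus MCF10A, empirical Bayes moderation, Benjamini-Hochberg adjustment over all probe sets). The fit was tested on simulated data. Each gene was read from its brightest probe set over all 6 arrays. Percentiles rank a member's mean among all probe sets of that line. The members and gene lists were chosen with earlier results of these data known. Named were all members, with array values for those at an adjusted p below 0.01 and for ABCB1, ABCC1, ABCG2, CFTR, TAP1 and TAP2, and, of each partner list, up to 4 called genes per direction. Genes outside this rule (array values of other members, PSMB8, PSMB9, B2M, TAPBP, TAPBPL, ERAP2, NLRC5, IRF1, the neighbors on chromosomes 6 and 17 and the line markers) were chosen after their values were seen. Promoters and gene order are from RefSeq, GRCh38.p14. Alternatives were quantile normalization, centring on the array median, a block for the replicate number, leaving out single arrays, 2 filters on dim probe sets, limma with a trend or robust, the methods' t-test, other thresholds and probe sets averaged per gene.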

Additional observations from a re-analysis of the deposited data

How the results depend on the processing

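Removing the fold threshold changes which members are called and is given with the counts below. Under every other alternative that gave a value, 37 of the 46 members kept the sign of their log2 fold change and their call. Among these other alternatives the call changed for ABCA6, which the methods' t-test left out (adjusted p = 0.0168). It also changed for ABCC2, which was called without MCF10A replicate 1, at -1.01. The sign changed for 7 members that were not called and lay within 0.083 of 0. With quantile normalization ABCA10 was at 0.0020, and with median centring ABCB11 was at -0.0067. With an array left out ABCA10 ranged from -0.11 to 0.11, ABCB11 from -0.076 to 0.10, ABCB4 from -0.11 to 0.029, ABCB5 from -0.033 to 0.19, ABCF3 from -0.089 to 0.084, ABCG8 from -0.051 to 0.0088 and CFTR from -0.090 to 0.023. The counts called higher and lower (2 and 2) were 1 and 2 by the methods' t-test and 6 and 7 with no fold threshold. With only probe sets above the median of all values they were 0 and 1, because ABCA6, ABCA8 and ABCA12 were no longer tested. They ranged over 2 to 2 and 2 to 3 with an array left out. At any fold, the count of 13 was 8 by the methods' t-test and 8 to 11 with an array left out. The median log2 fold change of the members was -0.033 with median centring, -0.048 and -0.10 without the dim probe sets (below the 20th percentile or the median), and ranged from -0.033 to 6.33e-05 with an array left out. Over all genes the count with no fold threshold was 2220 higher and 2059 lower. With an array left out, all genes called higher ranged from 558 to 591 and lower from 449 to 482. Among the partner genes, 7 higher and 7 lower became 27 and 30 with no fold threshold, 4 higher came from probe sets above the median, and the ranges with an array left out were 5 to 8 and 7 to 7. The replicate numbers of the titles were not shown to pair the samples. Deviations from the line means correlated at 0.115, 0.122 and -0.0062 for replicates 1, 2 and 3, and replicate 3 did not correlate best with its own number. With the replicate block the same 4 members were called and 8 members passed at any fold. The cause of these shifts was not tested. Dim signal limits what can be said of CFTR, ABCB5, ABCB4, ABCC9 and ABCC13, and low signal also of ABCB1 and ABCG2.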
